A study of Mus musculus with 8 samples.

Results

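The glutathione S-transferases of the alpha, mu and pi classes were examined in the liver RNA of mice on a Control or a Low AA diet. The 10 genes taken were Gsta2, Gsta3 and Gsta4 of the alpha class, Gstm1, Gstm2, Gstm3, Gstm4 and Gstm6 of the mu class, and Gstp1 and Gstp2 of the pi class. They were found by symbol, and all 10 were among the 11784 genes of the deposited table. Male C57BL/6J mice aged 9 weeks were moved from chow to a diet made of free amino acids, either the Control diet (4 mice: F129, F2212, F7111 and F2110) or the Low AA diet (4 mice: H1126, H828, H817 and H1315). The Low AA diet took a smaller share of its calories from amino acids and a larger share from carbohydrate, with a similar share from fat. Mice ate the diets for 4 months, livers were taken once they had fasted overnight for about 16 hours, and poly(A) RNA was sequenced, 1 library per mouse. The comparison asks which genes differ in the liver between these diets. In it, effects of fewer amino acids and of more carbohydrate cannot be told apart. Only males of 1 inbred strain were studied, so the values hold for that model.

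Glutathione S-transferases join glutathione, a tripeptide of glutamate, cysteine and glycine, to electrophilic compounds, which makes them more soluble and ready for export. The cytosolic enzymes work as dimers and are grouped into classes by sequence, of which alpha, mu and pi are the main classes of the liver. Hepatocytes hold much of the body's supply of these enzymes, and in mice the pi class is known for higher expression in male than in female liver. Their genes are known targets of the oxidative stress factor NRF2 and of the xenobiotic receptors CAR and PXR.

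The values are scaled read counts, that is, counts of reads per gene that had been adjusted between mice and rounded to whole numbers before deposit. Their totals over all genes lay between 27876664 and 30799385 per mouse, which are totals after scaling and do not give the sequencing depth. Differences are given as log2 fold changes of (value + 1), Low AA minus Control, from limma, and a gene was called at a Benjamini-Hochberg adjusted p under 0.05 over all 11784 genes. All 6 hepatocyte markers examined, albumin (Alb) among them, were present, with a summed value of 2346858 to 2781256 on the Control diet and 2531211 to 2781841 on the Low AA diet. In these whole-liver samples, fewer cells of a type and less RNA per cell cannot be told apart. Control mouse F2212 stood apart from the other 7 mice. Its value of Cela1, a pancreatic elastase gene, was 36587 against 130 to 288 elsewhere, and that of the acute-phase gene Saa1 was 57733 against 68 to 2818.

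Of the 10 transferases, Gstp1 was called, and it fell on the Low AA diet to 0.401 of its Control mean. It was thus 1 of 10 genes called lower and 0 were called higher, where 0.399% of all genes tested were called, 0.297% lower and 0.102% higher. At an unadjusted p under 0.05 there were 6 of 10, against 11.8% of all genes. In Gstp1, Gstp2, Gsta2 and Gsta4 each of the 4 Low AA mice had less than any Control mouse, a pattern without overlap that 6.81% of all genes showed, 3.55% lower and 3.26% higher. The log2 fold changes of the 10 genes had a median of -0.54, and 8 of them were below 0. Over all genes the median was 0.00, and 49.5% of genes were below 0.

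**Figure D1:**
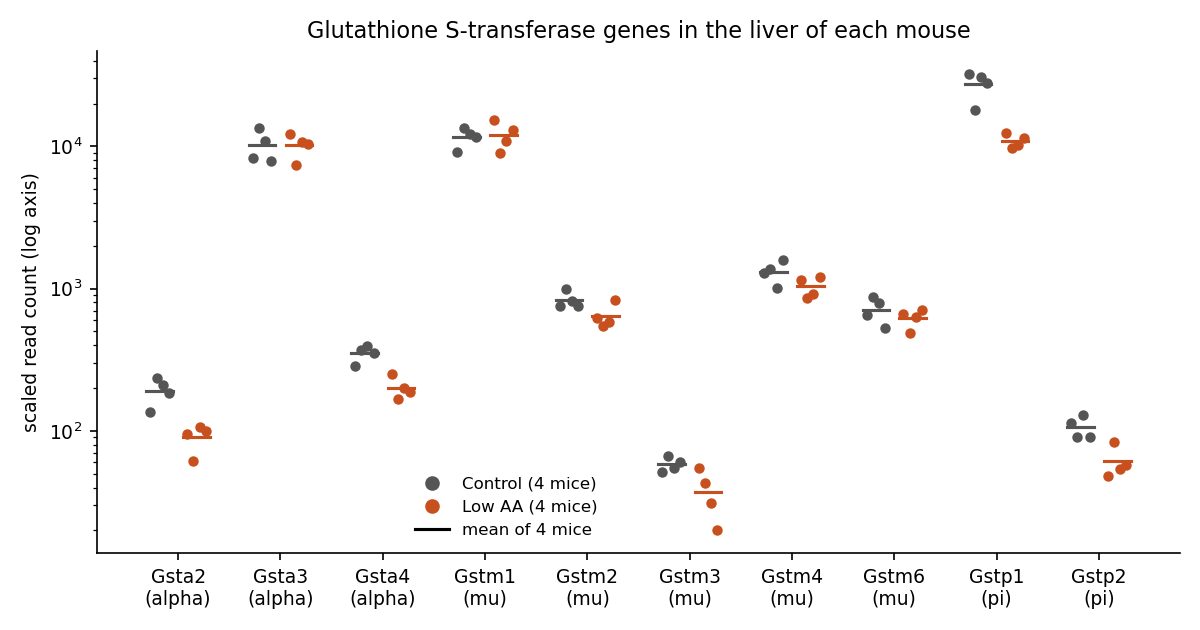
Scaled read count of each gene (log axis) in each mouse, with Control mice in grey and Low AA mice in orange; each point is 1 mouse and the short lines are means of 4 mice. Gstp1 separates the diets at high abundance, with Control mice from 17989 upward and Low AA mice no higher than 12349, while Gsta3 and Gstm1 overlap.

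The genes differ widely in level. Values per kilobase of transcript, which allow levels of different genes to be compared, placed Gstp1 first in the Control mice, at 33211 ± 7843 (SD, n = 4). Gstm1 followed at 8978 ± 1391 and Gsta3 at 6979 ± 1776 per kilobase (SD, n = 4 each). These 3 genes made up most of the summed level of the 10. The ranges of Gstm1 and Gsta3 overlapped between mice, although Gstm1 was the higher in each of the 4 Control mice. Next came Gstm2, Gstm4 and Gstm6 at 781, 773 and 619 per kilobase, neighbours whose ranges overlapped. Gsta4 at 359, Gsta2 at 220, Gstp2 at 133 and Gstm3 at 44.4 per kilobase closed the order, and among these 4 genes the neighbours Gsta2 and Gstp2 overlapped. In the Low AA mice Gstp1 had 13323 ± 1420 per kilobase (SD, n = 4), against 9324 ± 2111 for Gstm1 and 6969 ± 1353 for Gsta3.

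The pi class holds a pair of adjacent, near-identical genes on the minus strand of chromosome 19. Gstp1 encodes the principal pi enzyme of mouse liver, which also is known to bind the stress kinase JNK. It lies at chr19:4035407-4037985, and Gstp2 lies at chr19:4040285-4046023 (GENCODE M21 on GRCm38, the assembly also called mm10, which the submitters' processing notes name). Their coding parts, of 630 bases each, differ at 12 bases, and the last 300 bases of both are the same. The first 100 coding bases hold 6 of the 12 differences and are shown because a read that covers any of these 6 can tell the genes apart. They run over exons 1 to 3, at chr19:4037334-4037863 in Gstp1 and chr19:4041628-4042165 in Gstp2. Capitals mark the bases that differ.
Gstp1: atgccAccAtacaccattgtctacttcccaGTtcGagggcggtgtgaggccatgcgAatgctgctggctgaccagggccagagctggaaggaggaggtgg
Gstp2: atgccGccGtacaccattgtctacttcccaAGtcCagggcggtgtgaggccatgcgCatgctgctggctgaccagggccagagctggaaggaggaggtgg

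Gstp1 had values of 32471, 17989, 30516 and 28087 in Control mice F129, F2212, F7111 and F2110, and of 12349, 9719, 10303 and 11381 in Low AA mice H1126, H828, H817 and H1315. All 4 Low AA mice lay below all 4 Control mice, and the lowest Control value was that of F2212. The means were 27266 ± 6439 on the Control diet and 10938 ± 1166 on the Low AA diet (SD, n = 4 each). The log2 fold change was -1.29 (standard error 0.18, 95% interval -1.68 to -0.89, limma adjusted p = 0.0158), which ranked 18th of all genes by p. Without F2212 the log2 fold change was -1.48 (limma adjusted p = 0.000699). The call was lost without Low AA mouse H828 (-1.23, limma adjusted p = 0.065) and without Low AA mouse H817 (-1.26, limma adjusted p = 0.0681), and it was kept without each of the other 6 mice.

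Gstp2, the near-identical neighbour of Gstp1, was far less abundant. It had values of 114, 91, 130 and 90 in the Control mice and of 48, 84, 54 and 58 in the Low AA mice, in the order given above. The groups did not overlap, with H828 the highest Low AA mouse and F2110 the lowest Control mouse. The log2 fold change was -0.81 (standard error 0.21, 95% interval -1.27 to -0.34), and the gene did not pass (limma adjusted p = 0.146). On average Gstp2 amounted to 0.401% of Gstp1 on the Control diet and 0.572% on the Low AA diet.

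The alpha class held 1 abundant gene with like values on both diets and 2 scarcer genes with lower values on the Low AA diet. Gsta3, on chromosome 1 from 21240589 to 21265661, encodes an enzyme known for its activity on aflatoxin epoxide in mice. It had 8322, 13475, 10964 and 7910 in the Control mice and 12117, 7422, 10696 and 10382 in the Low AA mice. The ranges overlapped, and the log2 fold change was 0.01 (95% interval -0.42 to 0.44, limma adjusted p = 0.991), a value whose sign changed with single mice left out.

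Gsta4, on chromosome 9 from 78182774 to 78209349, encodes the enzyme that conjugates 4-hydroxynonenal, a product of lipid peroxidation. Its values were 287, 372, 392 and 353 in the Control mice and 252, 168, 200 and 187 in the Low AA mice, without overlap. The log2 fold change was -0.80 (standard error 0.15, 95% interval -1.14 to -0.46), which missed the threshold (limma adjusted p = 0.0642, range 0.0598 to 0.205 over 16 alternatives). Gsta2, also on chromosome 9 from 78331018 to 78355788, is a low-level alpha gene known to be inducible by antioxidants. It had 136, 235, 210 and 184 in the Control mice and 95, 61, 106 and 100 in the Low AA mice. No Low AA mouse reached the lowest Control mouse, F129, and the Low AA mean was 0.473 of the Control mean. The log2 fold change was -1.07 (standard error 0.22, 95% interval -1.56 to -0.59, limma adjusted p = 0.0793), the second largest in size of the 10.

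The mu genes lie next to each other on the minus strand of chromosome 3, from Gstm6 at 107938847 to Gstm4, which ends at 108044894. None of the 5 passed, none was without overlap between diets, and 4 of 5 had log2 fold changes below 0. Gstm1, the main mu gene of the liver, had 9148, 13424, 12155 and 11564 in the Control mice and 15258, 8963, 10838 and 13015 in the Low AA mice. Low AA mice were both the highest and the lowest of the 8, and the log2 fold change was 0.04 (95% interval -0.35 to 0.43, limma adjusted p = 0.957), with a sign that changed with single mice left out.

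Gstm3, the scarcest of the 10 genes, had 51, 67, 55 and 60 in the Control mice and 55, 43, 31 and 20 in the Low AA mice. Its log2 fold change was the largest in size of the mu class, at -0.72 (95% interval -1.36 to -0.08, limma adjusted p = 0.36). Gstm2, another mu enzyme, had 749, 1001, 822 and 754 against 625, 550, 580 and 827, and Low AA mouse H1315 was the only Low AA mouse above any of the Control mice. Its log2 fold change was -0.37 (95% interval -0.70 to -0.04, limma adjusted p = 0.356). Gstm4 ran from 1015 to 1601 on the Control diet and from 858 to 1208 on the Low AA diet, for a log2 difference of -0.34 (limma adjusted p = 0.443). Gstm6 ran from 530 to 876 and from 489 to 707, for a log2 difference of -0.19 (limma adjusted p = 0.75).

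**Figure D2:**
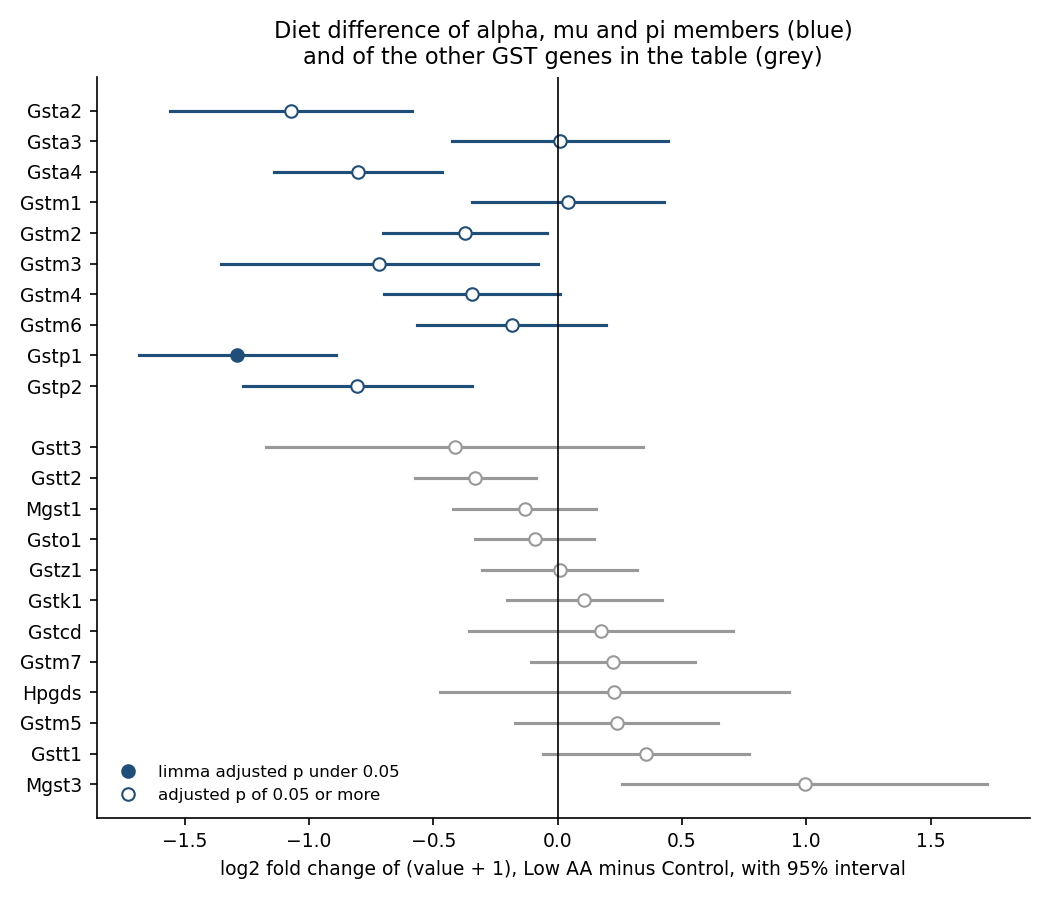
Log2 fold change of (value + 1), Low AA minus Control, with 95% intervals from limma, for the 10 alpha, mu and pi genes (blue) and 12 other glutathione S-transferase genes (grey). A filled point marks a limma adjusted p under 0.05, which Gstp1 reached at -1.29; Mgst3 at 0.99 is the highest value.

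Summed over the class, the pi genes had 27372 ± 6452 on the Control diet and 10999 ± 1153 on the Low AA diet (SD, n = 4 each), a ratio of 0.402. The sum carries the same information as Gstp1 and does not depend on how reads were split between Gstp1 and Gstp2. Both genes also share stretches with the pseudogene Gstp-ps, and the sum can still depend on reads given to it. The alpha sum was 10710 ± 2651 and 10447 ± 2020, a ratio of 0.975, and the mu sum was 14495 ± 1987 and 14359 ± 3018 (SD, n = 4 each), a ratio of 0.991. Alpha and mu sums therefore differed between diets by less than the spread between mice. Per kilobase of transcript, the 10 genes together had 52097 ± 5330 on the Control diet and 31784 ± 4995 on the Low AA diet (SD, n = 4 each). The pi class made up 63.3% ± 9.95 of this total in the Control mice and 42.4% ± 2.74 in the Low AA mice (SD, n = 4 each). Its share was 49.1% in F2212, between 65.5% and 72.1% in the 3 remaining Control mice, and between 40.3% and 46.5% on the Low AA diet. The mu class took 21.8% and 34.7%, and the alpha class 14.8% and 22.8%, on average.

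**Figure D3:**
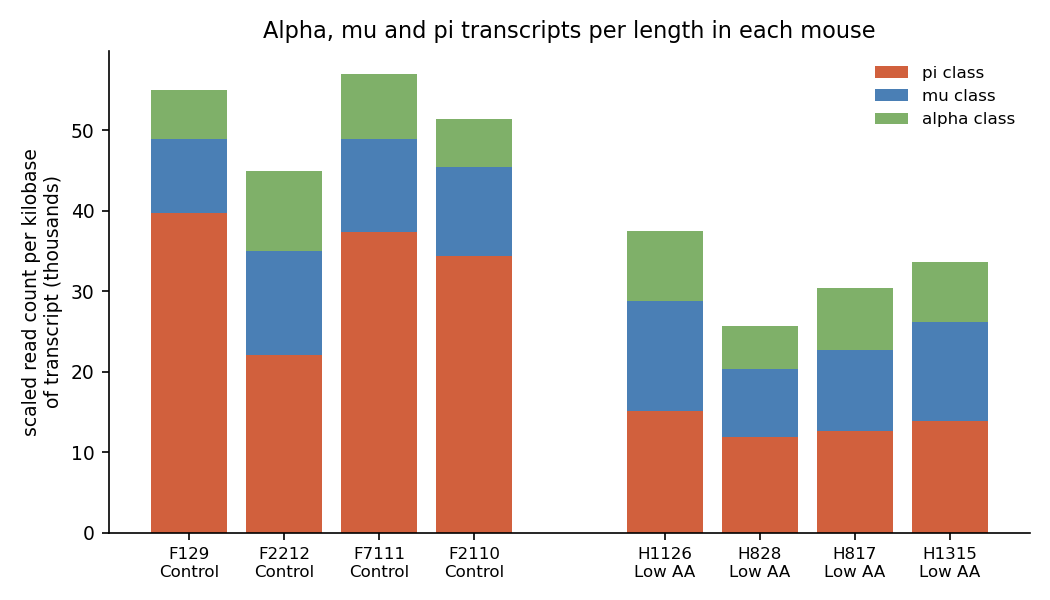
Scaled read count per kilobase of transcript of the pi, mu and alpha genes stacked for each mouse. The Control mice reach 44889 to 57025 per kilobase and the Low AA mice 25709 to 37501, and the pi part is the one that differs between diets.

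Members of a class were also set against the most abundant member of that class in the same mouse, which removes any factor that scales a whole library. Of 7 such ratios, 3 did not overlap between diets, and the same 3 had an unadjusted p under 0.05. With 4 mice against 4 only ratios without overlap can reach such a p, so both statements are 1 result. The ratios of Gsta2 and Gsta4 also share the reference Gsta3, which had like values on both diets. After adjustment over the 7, 0 passed. The smallest exact permutation p possible, 0.0286, can pass adjustment only if most of the 7 ratios reach it, so this 0 says little. The log2 ratio of Gsta2 to Gsta3 was -5.72 ± 0.22 in the Control mice and -6.80 ± 0.16 in the Low AA mice (SD, n = 4 each), a difference of -1.08 (exact permutation test, two-sided, p = 0.0286, adjusted 0.0667). That of Gsta4 to Gsta3 differed by -0.81 and that of Gstm2 to Gstm1 by -0.41, with the same exact permutation p of 0.0286 (adjusted 0.0667), the smallest that 4 mice against 4 allow. The ratio of Gstm3 to Gstm1 differed by -0.76 (exact permutation p = 0.0571, adjusted 0.1). The ratios of Gstm4 and Gstm6 to Gstm1 differed by -0.38 and -0.23 (exact permutation p = 0.143 and 0.229, adjusted 0.167 and 0.229). That of Gstp2 to Gstp1 was the one ratio higher on the Low AA diet, by 0.48, with overlap (exact permutation p = 0.143, adjusted 0.167).

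**Figure D4:**
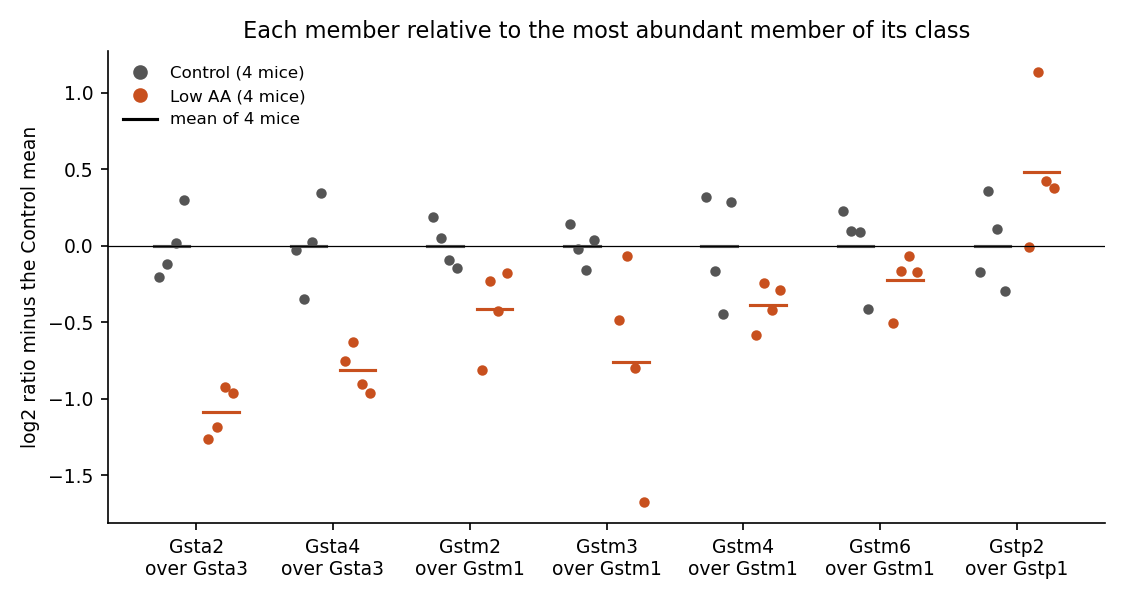
Log2 ratio of each gene to the most abundant gene of its class, in each mouse, with the Control mean subtracted; points are mice and short lines are means of 4 mice. The Low AA points of Gsta2 over Gsta3, Gsta4 over Gsta3 and Gstm2 over Gstm1 all lie below the Control points, by -1.08, -0.81 and -0.41 on average.

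Because the libraries were read as single reads of 100 bases, stretches of that length shared between genes mark where a read cannot be given to 1 gene. In Gstp1, 381 of the 722 windows of 100 bases in its transcript, 52.8%, also occur in another gene, each of them in Gstp2. Some of these also occur in the pseudogene Gstp-ps. In Gstp2 63.5% of windows are shared, with Gstp1 or Gstp-ps. In Gsta2 270 of 771 windows are shared, with Gsta1 or the gene models Gm3776 and Gm10639, and the coding parts of Gsta1 and Gsta2 are 97.6% identical. Gsta1 and Gstp3 were not among the genes of the table. In the mu class, Gstm3 shares 13.8% of its windows, Gstm1 7.73%, Gstm6 2.47% and Gstm2 0.622%. Gsta3, Gsta4 and Gstm4 share none. The values of Gstp2 and Gsta2 are uncertain for this reason, as are those of Gstp1 to a smaller degree, given how rare Gstp2 is beside it. How shared reads were divided among genes was not tested.

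**Figure D5:**
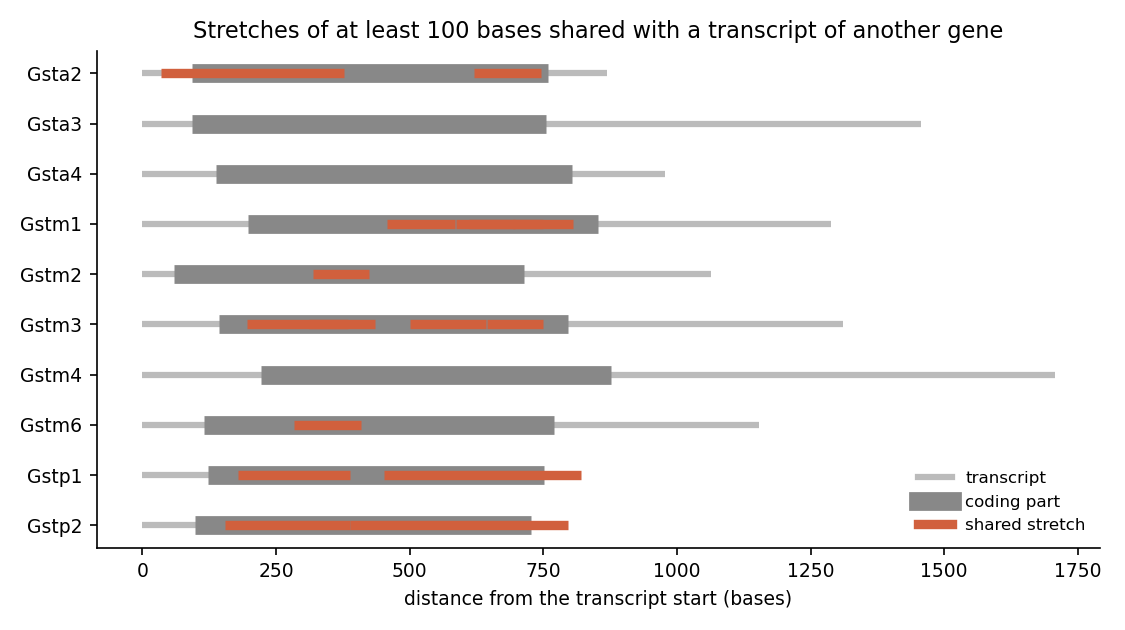
Transcripts of the 10 genes drawn to scale in bases from the transcript start, with the coding part in dark grey and stretches of at least 100 bases found in a transcript of another gene in orange. Shared stretches cover most of Gstp1 and Gstp2 beyond the first coding bases, part of Gsta2, and none of Gsta3, Gsta4 or Gstm4.

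Promoters of the members were searched. Both pi genes had lower values on the Low AA diet, though the value of Gstp2 is uncertain because of its shared reads. RefSeq promoter windows (GRCm38.p6, 250 bases before to 50 after the start site) matched 9 of the 10 genes by symbol, with 13 windows in all. The antioxidant response element, the site of NRF2, was searched on both strands as TGACNNNGC and in the looser form TGANNNNGC, which includes the first. TGACNNNGC occurred in 1 of the 13 windows, that of Gsta3, and in 12.4% of 32851 windows of all genes. TGANNNNGC occurred in 6 of the 13 windows and in 41.3% of all windows, which is a like share. It lay in windows of 5 genes, Gsta3, Gstm3, Gstm4, Gstp1 and Gstp2. In both pi promoters it took the form TGAGTCAGC, on the gene's strand, 74 bases before the start site of Gstp1 and 89 bases before that of Gstp2. The Gstp1 window held further TGANNNNGC matches, TGAGGACGC on the opposite strand 9 bases before the start site and TGAATCCGC 29 bases after it, and the Gstp2 window held none besides TGAGTCAGC. The exact form TGAGTCAGC, noticed after the sequences were seen, is in 0.414% of all windows. The 200 bases before each RefSeq start site are shown, with only TGAGTCAGC in capitals. They lie on the minus strand at chr19:4037913-4038112 for Gstp1 and chr19:4042222-4042421 for Gstp2. The GENCODE spans of both genes given above reach further upstream than these start sites. They cover part of the Gstp1 stretch, with most of its TGAGTCAGC, and all of the Gstp2 stretch. Each match was found by sequence alone, and no binding was measured.
Gstp1: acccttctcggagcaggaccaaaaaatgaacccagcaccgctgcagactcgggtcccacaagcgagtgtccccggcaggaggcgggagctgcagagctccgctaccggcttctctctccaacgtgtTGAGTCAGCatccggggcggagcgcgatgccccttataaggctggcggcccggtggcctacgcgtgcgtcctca
Gstp2: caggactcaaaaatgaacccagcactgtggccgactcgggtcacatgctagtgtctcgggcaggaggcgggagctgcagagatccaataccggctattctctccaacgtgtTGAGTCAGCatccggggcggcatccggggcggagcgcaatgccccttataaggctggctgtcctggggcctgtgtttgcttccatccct

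Of 17 further transferase genes listed, 12 were in the table, and 0 were called by limma in either direction, where 0.399% of all genes were. At an unadjusted p under 0.05 there were 2, against 11.8% of all genes. Those 2 were Gstt2, a theta enzyme, at 3268 ± 368 in the Control and 2592 ± 216 in the Low AA mice, and Mgst3, a microsomal enzyme, at 95.8 ± 56.5 and 173 ± 30.2 (SD, n = 4 each). Their log2 fold changes were -0.33 and 0.99 (limma adjusted p = 0.258 for each). Gstt2 did not overlap between diets. The highest Control value of Mgst3, 177, was in F2212, close to the Low AA values. The median log2 fold change of the 12 was 0.14. Further mu genes among them were Gstm5 at 0.24 and Gstm7 at 0.22 on the log2 scale (limma adjusted p = 0.694 and 0.628). Mgst1, the abundant microsomal transferase, was at -0.13 (limma adjusted p = 0.767), Gstt1 at 0.36 (limma adjusted p = 0.51), and Gstt3 at -0.41 (limma adjusted p = 0.712). Gstk1, Gstz1, Gsto1, Gstcd and Hpgds lay between -0.09 and 0.23.

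Genes that make and recycle glutathione were examined next. Over all genes 0.399% were called and 11.8% had an unadjusted p under 0.05, so 0 calls in such short lists say little. Of 14 genes of glutathione synthesis and breakdown in the table, 0 passed in limma, 3 had an unadjusted p under 0.05, and the median log2 fold change was -0.04. Gclc, the catalytic subunit of the rate-limiting enzyme glutamate-cysteine ligase, had 4304 ± 969 and 4212 ± 801 on the Control and Low AA diets (SD, n = 4 each), which differed by -0.02 on the log2 scale (limma adjusted p = 0.978). Its modifier subunit Gclm had 2038 ± 128 and 1662 ± 285 (SD, n = 4 each), a log2 difference of -0.31 (limma adjusted p = 0.366). Oplah, the 5-oxoprolinase that returns glutamate from the glutathione cycle, had values without overlap that differed by 0.24 on the log2 scale (limma adjusted p = 0.348). Of 15 glutathione peroxidases, reductases and related enzymes, 0 passed in limma and 2 had an unadjusted p under 0.05, with a median of 0.00. The smallest p there belonged to the glutaredoxin Glrx, at 0.30 (limma adjusted p = 0.347), and the secreted peroxidase Gpx3, at -0.45 (limma adjusted p = 0.42).

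Of 14 genes of conjugate export and mercapturate formation, 0 passed in limma, 4 had an unadjusted p under 0.05, and the median was -0.10. The shares over all genes were 0.399% passing and 11.8% with an unadjusted p under 0.05. Abcc3, an exporter of conjugates into blood, had 5769, 7575, 6958 and 7264 in the Control mice and 5718, 2967, 4595 and 4113 in the Low AA mice, without overlap. Its log2 fold change was -0.70 (limma adjusted p = 0.147). Acy3, the aminoacylase that acts on mercapturates, likewise did not overlap, at -0.42 (limma adjusted p = 0.22).

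Among 23 known NRF2 targets outside the transferases, 1 passed, which was lower, where 0.297% of all genes were called lower, and the median was -0.07. At an unadjusted p under 0.05 there were 8 of the 23, against 11.8% of all genes. It was Aox1, an aldehyde oxidase, with 1476, 1956, 1741 and 1738 in the Control mice and 824, 1029, 704 and 753 in the Low AA mice. These did not overlap, and Aox1 fell by 1.07 on the log2 scale (limma adjusted p = 0.0106). The list was drawn up with earlier results of these mice known, so its call is not independent evidence about the list. Besides Aox1, the epoxide hydrolase gene Ephx1 (-0.66, limma adjusted p = 0.0653) and the ferritin gene Ftl1 (-0.38, limma adjusted p = 0.409) were lower without overlap, and the glucose-6-phosphate dehydrogenase gene G6pdx was higher without overlap (0.38, limma adjusted p = 0.284). Nqo1, a standard NRF2 target, ran from 149 to 197 on the Control diet and from 134 to 196 on the Low AA diet. Of 25 regulators, 0 passed in limma and 2 had an unadjusted p under 0.05, with a median of 0.08. Nfe2l2, which encodes NRF2, was at 0.14 (limma adjusted p = 0.871) and its inhibitor Keap1 at 0.07 (limma adjusted p = 0.86). Nr1i2, which encodes PXR, was at 0.18 (limma adjusted p = 0.734), and Nr1i3, which encodes CAR, was also at 0.18 (limma adjusted p = 0.696). Nfe2l1, a relative of NRF2, had 4668 ± 260 and 6569 ± 795 (SD, n = 4 each), without overlap, a log2 difference of 0.49 (limma adjusted p = 0.0917). Stat5a, a factor downstream of growth hormone, was at 0.52 (limma adjusted p = 0.266). Counted once each, 100 genes of these lists and the further transferases were in the table, 1 was called, and their median was 0.00. Of the 100, 20 had an unadjusted p under 0.05, against 11.8% of all genes. Without overlap 6 were lower and 3 higher, against 3.55% and 3.26% of all genes.

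Markers of other liver cells were compared beside these results. Of 7 cholangiocyte markers 5 were in the table, with Krt7 and Cftr absent from it, and 4 of the 5 had log2 fold changes below 0. Their sum lay between 1430 and 2626 on the Control diet and between 1117 and 1730 on the Low AA diet. The 6 Kupffer cell and macrophage markers, all with log2 fold changes above 0 (median 0.23), summed to 7248 to 10484 and 7418 to 10771, the 6 stellate cell markers to 8137 to 10642 and 8372 to 10525, and the 5 endothelial markers to 4307 to 6228 and 5321 to 5865. Among the stellate cell markers the collagen gene Col1a1 had 147, 70, 120 and 82 in the Control mice and 52, 37, 69 and 38 in the Low AA mice, without overlap, a log2 difference of -1.07 (limma adjusted p = 0.148), which the sum, carried mostly by the proteoglycan gene Dcn, does not show. The 4 blood markers present, all with log2 fold changes below 0, summed to 7206 to 27464 and 9211 to 13541, and the 7 acute-phase genes, also all below 0, to 100936 to 282583 and 76813 to 101555. Orm1 had 11320 ± 3473 and 3155 ± 2011 (SD, n = 4 each), without overlap, a log2 difference of -2.06 (limma adjusted p = 0.0908). Saa1 was likewise lower without overlap (-3.49, limma adjusted p = 0.261). The acute-phase sum, carried mostly by Hp, does not show the size of these differences. None of these genes was called by limma, and of 7 pancreas and 4 adipose markers only Cela1 was in the table. Each gene of the table had a third-highest value of 28 or more. A marker high in F2212 alone would thus be absent whatever its level there. The part of the cholangiocyte, Kupffer cell, stellate cell, blood and acute-phase genes in the lower transferase values was not tested.

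Genes with the most similar profile over the 8 mice were sought by the root mean square difference of z scores, over all genes outside the family, for the gene of each class with the smallest p. For Gstp1 they included Scfd1 and Pnpt1, with differences of 0.159 and 0.22 against a median of 1.31 over genes. For Gsta4 they were Ugt1a6a, Acsf2 and Tert, with 0.2, 0.261 and 0.268, and for Gstm2 they were BC024139, 1110003E01Rik and Ptms, with 0.148, 0.191 and 0.202. None of these 8 genes was called. The nearest of many genes lie far below the median difference by selection, so that contrast was fixed in advance. Z scores also remove the size of a difference. Scfd1 and Pnpt1 were at -0.21 and -0.34 on the log2 scale, against -1.29 for Gstp1. Ugt1a6a, a glucuronosyltransferase gene, had 1383, 1621, 2043 and 1661 in the Control mice and 1376, 908, 1004 and 996 in the Low AA mice, which differed by -0.65 on the log2 scale (limma adjusted p = 0.119). Its reads are uncertain, because genes of the Ugt1a cluster share exons.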

How the data were processed

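Liver RNA of 4 Control and 4 Low AA mice was analysed, with each mouse as 1 replicate and groups taken from the diet labels. In the table the authors deposited, each mouse has a column of signal, meaning read counts scaled and rounded. A signed fold change, which is a score, and an FDR, a q-value, come from the comparison the authors made and were not used. Per the labels, the submitters' tools include STAR 2.5.0a, RSEM 1.2.6, edgeR 3.10.5 and build mm10, without their roles. How values were scaled is not given in the sources used here. Column medians lay between 433 and 449, and in most mice some whole numbers were nearly absent or over-represented at regular steps, so the values are not raw counts and no count model was applied. Scaling also leaves the exact depth unknown. The third-highest value of each gene was 28 or more, so genes of low level are missing from the table, as would be a gene high in only 1 mouse.

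The log2(value + 1) of 11784 genes went into limma 3.58.1 (R 4.3.3), fitted with a trend of variance on mean, and p-values were adjusted by Benjamini-Hochberg over these genes. No gene was lost to the filter, which asked for a value of 1 in 4 mice. The fit was tested on simulated data. Ratios were compared by exact permutation tests (scipy 1.17.1). Lengths, shared windows and positions came from GENCODE M21, with the principal coding transcript of each gene, and promoters from RefSeq. Protein sequences were not used here. Members and lists were chosen with earlier results of these data known. The text names the 10 members, the other transferases, the called genes of each list (otherwise the 2 of smallest p), Gclc, Gclm and 4 regulators, and 3 similar genes per class, of which 1 is not reported here. Ephx1, Ftl1, G6pdx, Nqo1, Col1a1, Dcn and Krt7 with Cftr were named after values were seen. Older symbols were matched through RefSeq synonyms. Alternatives were pseudocounts of 0.1 and 5, no filter, the 8000 genes of highest mean, equal totals, trimmed mean of M values factors, no trend, robust moderation, and each mouse left out. Figures were drawn with matplotlib 3.10.9.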

Additional observations from a re-analysis of the deposited data

How the results depend on the processing

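Gstp1 kept its direction in all 16 alternatives, with log2 fold changes from -1.48 to -1.19, and was called in 14 of them. It passed under every other pseudocount, filter, scaling and moderation tried. With 1 mouse left out, the number of transferases called ran from 0 to 1, with 0 without Low AA mouse H828 and without Low AA mouse H817, and the number of genes called ran from 16 to 77, against 47 with all mice. It was 77 without Control mouse F2212, 29 without Control mouse F129, and 21, 19 and 16 without Low AA mice H1126, H828 and H817. It was 19 among the 8000 genes of highest mean, a set that leaves out Gsta2, Gstm3 and Gstp2, and 30 without the mean-variance trend. The cause of the last was not tested. None of the other 9 transferases was called in any alternative. The sign of Gsta3 and Gstm1 changed when single mice were left out, with log2 fold changes from -0.10 to 0.16 and from -0.084 to 0.17. The other 8 stayed below 0 wherever they were tested. The 7 ratio differences kept their signs in the alternatives run for them. The log2 ratio of the pi sum ran from -1.47 to -1.22, and those of the alpha and mu sums from -0.13 to 0.12 and from -0.13 to 0.098. With a mouse left out, the exact test of a ratio cannot go below 0.0571. No paired analysis was possible because the mouse codes are not shared between the diets.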

Other observations

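In 40 groups of 4 mice examined, over the values, ratios and class sums of these genes, 0 had a mouse far enough from the rest to pass Dixon's test for an outlying value. Chance gives about 1 in 20.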
